A study of Mus musculus with 24 samples.

Results

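The 9 genes described here include Trem2, its signalling adaptor Tyrobp and the signalling genes Syk, Plcg2, Vav1, Inpp5d and Ptpn6. The others are Cd33, the gene of a sialic acid receptor, and Treml1, a relative of Trem2 that lies beside it. They were chosen by symbol, and all 9 were found among the 24058 gene symbols of the hippocampal count table. The table holds bulk RNA sequencing of mouse hippocampal tissue, and every mouse carried P301S, a mutant human tau, the controls included. The labels name 3 genotypes at Trem2. Mice with mouse Trem2 on both alleles (msTrem2+/+) are called Trem2+/+ here and served as controls. Mice with 1 human TREM2 allele of the common form (hTREM2-WT/+) are called WT-TREM2, and mice with 1 human allele that carries the R47H change (hTREM2-R47H/+) are called R47H-TREM2. The 24 libraries fall into 6 groups by title prefix, sex and genotype. Under LG72 there were 5 R47H-TREM2 females against 3 Trem2+/+ females and 5 R47H-TREM2 males against 2 Trem2+/+ males. Under LG73 there were 6 WT-TREM2 females against 3 Trem2+/+ females. The labels give neither the age of the mice nor the meaning of the prefixes, and no prefix holds both human alleles. Libraries are numbered within a group in accession order. The labels do not say that each library is a separate animal, so every p-value reflects spread from library to library, part of which may be technical.

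TREM2 is a receptor on the surface of microglia that binds lipids, lipoproteins and debris. It has no signalling tail of its own and works through TYROBP, an adaptor whose tyrosine motif is phosphorylated by Src family kinases when a ligand binds. The kinase SYK docks on that motif and activates the phospholipase encoded by Plcg2, the exchange factor VAV1 and the PI3K pathway. The lipid phosphatase encoded by Inpp5d and the tyrosine phosphatase encoded by Ptpn6 dampen the signal. CD33 is a sialic acid receptor, and its human form has inhibitory motifs that recruit such phosphatases. Whether the mouse form acts in the same way was not examined here. TREML1 is an inhibitory-type receptor best known from platelets. R47H is a rare variant of the human receptor that is linked to Alzheimer's disease and is known to weaken ligand binding.

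The DNA just before each gene's start is shown for 4 genes as a description. The transcripts of most of the 9 genes went up and down together across the libraries, and with the level of microglial markers, as described below. Whether the upstream sequence had any part in that was not tested. Capitals mark GAGGAAG or its reverse complement CTTCCTC, a core of the sequence bound by PU.1, the myeloid transcription factor that Spi1 encodes. Each line gives the 250 bases before the start site on the gene's own strand (RefSeq, GRCm38.p6).
Trem2 (chr17:48346151-48346400, plus strand): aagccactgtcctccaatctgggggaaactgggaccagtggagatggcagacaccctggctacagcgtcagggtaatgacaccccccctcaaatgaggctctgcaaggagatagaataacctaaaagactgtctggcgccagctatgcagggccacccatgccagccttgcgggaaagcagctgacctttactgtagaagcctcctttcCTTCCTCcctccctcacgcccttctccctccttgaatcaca
Inpp5d (chr1:87620062-87620311, plus strand): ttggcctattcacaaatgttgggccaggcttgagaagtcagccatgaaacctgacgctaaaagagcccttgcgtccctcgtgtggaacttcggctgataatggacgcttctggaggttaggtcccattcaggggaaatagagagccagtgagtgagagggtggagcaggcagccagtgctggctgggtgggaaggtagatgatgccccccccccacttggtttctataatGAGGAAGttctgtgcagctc
Vav1 (chr17:57278850-57279099, plus strand): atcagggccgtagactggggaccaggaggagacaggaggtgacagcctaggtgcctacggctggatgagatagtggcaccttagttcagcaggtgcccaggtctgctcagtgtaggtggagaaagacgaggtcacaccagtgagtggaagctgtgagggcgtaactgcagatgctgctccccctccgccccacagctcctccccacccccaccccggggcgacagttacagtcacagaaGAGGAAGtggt
Ptpn6 (chr6:124738710-124738959, minus strand): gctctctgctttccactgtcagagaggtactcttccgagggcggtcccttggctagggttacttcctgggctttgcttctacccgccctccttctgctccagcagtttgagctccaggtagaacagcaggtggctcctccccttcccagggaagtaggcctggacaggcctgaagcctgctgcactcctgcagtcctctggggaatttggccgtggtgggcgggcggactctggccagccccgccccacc
The motif began 41 bases before the start of Trem2, 20 before that of Inpp5d and 11 before that of Vav1, and a match also lay 226 bases before the start of Cd33. RefSeq entries were matched for 8 of the 9 genes, the one without an entry being Tyrobp. Of their 9 start sites, 4 held a match on either strand (44.4%), against 10.6% of all 32851 start sites and 30.8% of the 13 start sites matched for the microglial marker list used below. Ptpn6, whose level followed the microglial markers most closely, had no match in this window. A match is a string of letters and not a measured binding site, and a window without one says nothing about the factor.

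Depth ran from 13261478 to 23807390 counts per library. Several libraries held transcripts of other regions or organs. Those with Prl, a pituitary hormone, or Omp, an olfactory neuron marker, above 50 CPM (counts scaled to library size), or with the striatal receptor Adora2a above 30 CPM, are called the 6 doubted libraries. They are R47H-TREM2 female 5 and Trem2+/+ females 1 and 3 of LG72, and Trem2+/+ female 3 and WT-TREM2 females 2 and 5 of LG73. Without them 4 R47H-TREM2 females face 1 control in LG72 and 4 WT-TREM2 females face 2 in LG73. Alb, best known from liver, and Ttr, best known from choroid plexus, were not used for this class and varied widely. Over all libraries Alb ran from 1.72 to 225 CPM. Ttr ran from 295 to 2940 CPM in R47H-TREM2 females against 33.1 to 505 in their controls. In WT-TREM2 females it ran from 21.5 to 495 CPM against 296 to 1380. Markers of hippocampal neurons were present in every library (summed CPM of 10 genes from 296 to 1110), as were all 16 microglial markers (442 to 1910).

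Trem2, the targeted gene (chromosome 17, 48346401 to 48354147 of GRCm38), did not separate the genotypes of females. In LG72 it stood at 29.7, 13.7, 15.4, 7.14 and 24.4 CPM in R47H-TREM2 females and at 26.4, 5.81 and 17.2 CPM in their controls. The 2 groups overlapped over nearly their whole range, with means of 18.1 ± 8.94 and 16.5 ± 10.3 CPM (SD, n = 5 and 3; edgeR log2 fold change 0.13 with an SE of 0.56 and adjusted p = 0.932). In LG73 the 6 WT-TREM2 females ranged from 2.78 to 33.1 CPM with a median of 8.49, and the controls stood at 8.94, 9.0 and 17.6 CPM. Here too the groups overlapped (edgeR log2 fold change 0.07 with an SE of 0.55 and adjusted p = 0.979). Males differed more. R47H-TREM2 males stood at 12.5, 15.2, 10.8, 6.51 and 12.5 CPM and their controls at 27.3 and 20.8 CPM. All 5 R47H-TREM2 males lay below both controls, but the edgeR test was not passed (11.5 ± 3.20 against 24.1 ± 4.59 CPM, SD, n = 5 and 2; log2 fold change −1.06 with an SE of 0.61, adjusted p = 0.779). The labels put a human sequence at 1 of the 2 Trem2 alleles, and the sources used here do not say whether its reads were counted under the mouse symbol. The level of Trem2 therefore does not check the genotype labels. In these bulk samples fewer microglia and less RNA per microglial cell cannot be told apart.

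Tyrobp (chromosome 7, 30413760 to 30417585) overlapped between genotypes in all 3 comparisons. It stood at 54.7, 20.9, 27.6, 15.8 and 36.9 CPM in R47H-TREM2 females and at 27.9, 6.71 and 9.60 CPM in their controls. Of the 5, 2 lay above all controls, and control female 1 was the high one (31.2 ± 15.3 against 14.7 ± 11.5 CPM, SD, n = 5 and 3; edgeR log2 fold change 1.08 with an SE of 0.52 and adjusted p = 0.355). The fold change was 1.88 without that control and 0.69 without control female 2. R47H-TREM2 males stood at 14.2, 21.4, 17.2, 10.4 and 14.2 CPM and their controls at 17.9 and 14.6 CPM, so the groups overlapped around the same level (edgeR log2 fold change −0.07 with an SE of 0.58 and adjusted p = 0.981). WT-TREM2 females ranged from 4.61 to 32.6 CPM (median 9.55) and their controls stood at 7.22, 6.89 and 13.2 CPM, again overlapping (edgeR log2 fold change 0.64 with an SE of 0.51 and adjusted p = 0.860). That fold change was 0.21 without WT-TREM2 female 2, the library with the highest Trem2 and Tyrobp of its group.

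Set against each other, Trem2 and Tyrobp separated the genotypes in each of the 3 comparisons: carriers of a human allele had less Trem2 per Tyrobp than their controls. In R47H-TREM2 females the ratio of Trem2 to Tyrobp counts was 0.543, 0.656, 0.559, 0.453 and 0.660, and in their controls 0.946, 0.867 and 1.79. In R47H-TREM2 males it was 0.879, 0.709, 0.630, 0.628 and 0.886, and in their controls 1.52 and 1.42. In WT-TREM2 females it ran from 0.605 to 1.01, and in their controls it was 1.24, 1.30 and 1.33. In no comparison did a carrier reach a control. As with the level of Trem2, the ratio depends on whether reads of the human allele were counted under the mouse symbol, and the part of this in the difference was not tested. Over all libraries the 16 carriers ran from 0.453 to 1.01 (median 0.684) and the 8 Trem2+/+ libraries from 0.867 to 1.79 (median 1.32). These 2 ranges overlap only because the lowest controls, females 1 and 2 of LG72, lie below the highest carriers.

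**Figure D1:**
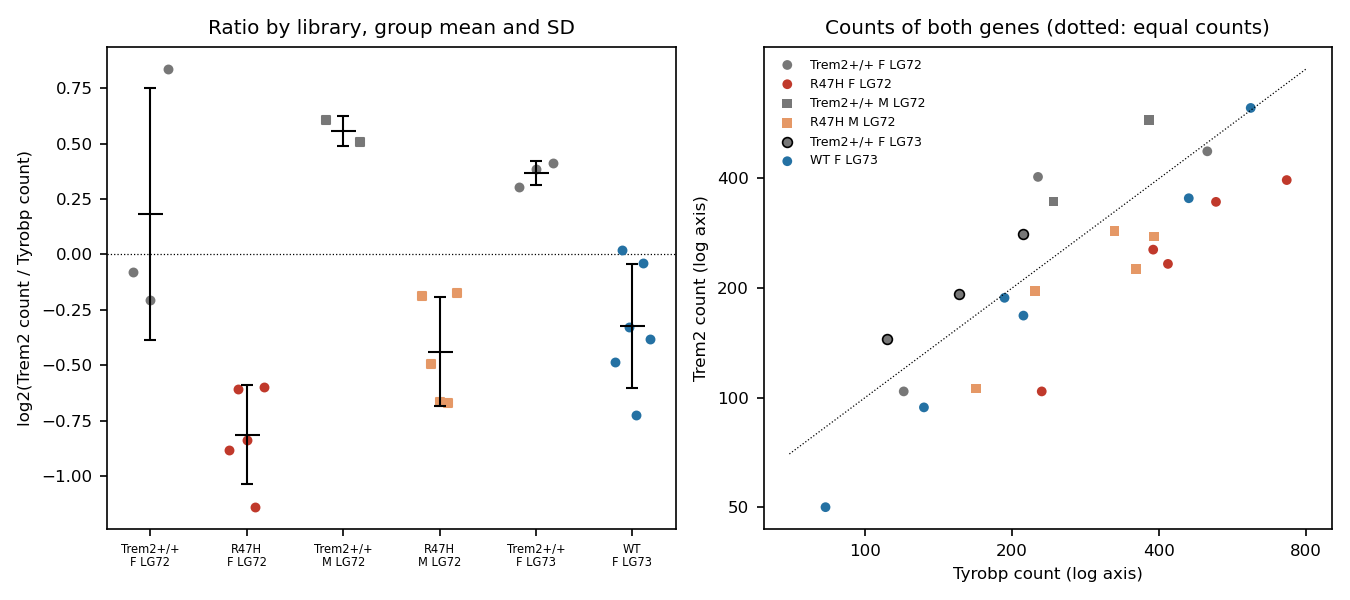
Left: log2 ratio of Trem2 to Tyrobp counts in each library (points) of the 6 groups on the x axis, with group mean and SD in black; circles are females and squares males. Right: Trem2 count against Tyrobp count on log axes, with a dotted line at equal counts. In each prefix and sex the human-allele libraries sit below the Trem2+/+ libraries, although the counts themselves overlap.

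On the log2 scale the mean ratio differed by −0.998 between R47H-TREM2 and Trem2+/+ females (−0.81 ± 0.22 against 0.18 ± 0.57, SD, n = 5 and 3; two-sided exact permutation p = 0.0357). In males the difference was −0.996 (−0.44 ± 0.25 against 0.56 ± 0.07, SD, n = 5 and 2; exact permutation p = 0.0952). With the WT allele it was −0.69 (−0.32 ± 0.28 against 0.37 ± 0.06, SD, n = 6 and 3; exact permutation p = 0.0238). Each p is the smallest that its group sizes allow, and adjusted over the 3 tests they are 0.0536, 0.0952 and 0.0536, so none passes 0.05 after adjustment. Without control female 3 of LG72, which has the highest ratio, the first difference was −0.67 and the groups still did not overlap. Without the 6 doubted libraries the differences were −0.66 (4 against 1), −0.996 (5 against 2) and −0.83 (4 against 2), with no overlap in any. Whether the R47H and WT alleles differ in this ratio was not tested, since they share no prefix.

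The same separation was looked for in every other gene tested, with Tyrobp as the reference. Carriers lay wholly below controls for 2.67% of 16117 genes in R47H-TREM2 females, 0.769% in R47H-TREM2 males and 0.521% in WT-TREM2 females. In all 3 comparisons at once 1 gene did so (0.0062%), and that gene was Trem2. Of the 16 microglial markers and the 90 pathway genes tested, 0 did. Without the doubted libraries 7 genes did, Trem2 among them, and with each library left out in turn 1 or 2 did, again with Trem2. Trem2 was also set against other reference genes, a check chosen after the data were seen. Against each of 16 microglial markers its mean log2 ratio was lower in R47H-TREM2 females and in R47H-TREM2 males, and against 15 of 16 it was lower in WT-TREM2 females, the exception being Laptm5 (0.05). The groups did not overlap for 4, 11 and 2 of these 16 references (in R47H-TREM2 females, R47H-TREM2 males and WT-TREM2 females), and for C1qa, a complement subunit made by microglia, they did not overlap in any of the 3 comparisons. Against the 7 other genes of the set with Treml1 left out, Trem2 was lower in all 3 comparisons, but the groups were apart for 2, 2 and 1 of the 7, and for Syk, Plcg2, Inpp5d, Cd33 and Vav1 they overlapped in every comparison. With any of the 16117 other genes as reference the groups were apart for 0.788%, 65.6% and 0.199%, and for 3 genes (0.0186%) in all 3 comparisons. In males most references thus separate the groups, as the CPM of Trem2 alone does. Relative to the mean of the 16 markers Trem2 was lower by log2 differences of −0.74, −0.91 and −0.39, with overlap in both female comparisons. Tyrobp relative to the same mean stood at 0.25, 0.08 and 0.29. With the microglial marker level as a covariate in edgeR the log2 fold change of Trem2 was −1.505 in R47H-TREM2 females (SE 0.41, unadjusted p = 0.00116, adjusted p = 1), −0.78 in males and −0.40 in WT-TREM2 females, and that of Tyrobp in R47H-TREM2 females was −0.27.

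**Figure D2:**
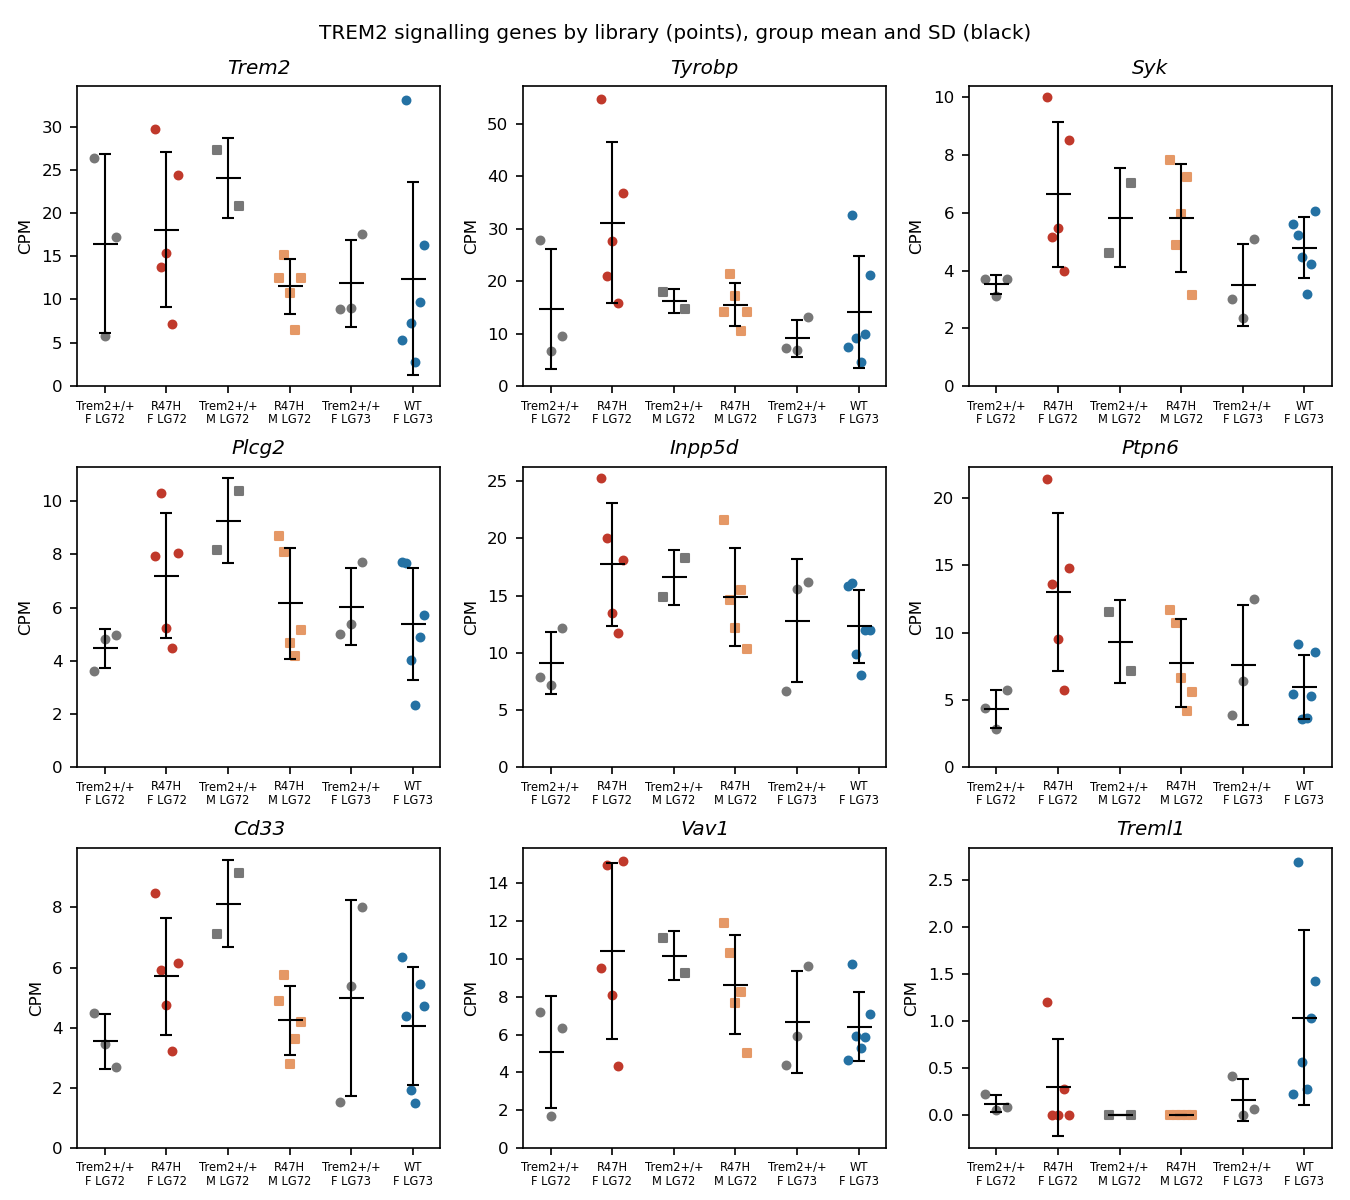
CPM of each of the 9 genes in every library (points; circles females, squares males) with group mean and SD in black, for the 6 groups on the x axis. Syk and Ptpn6 of R47H-TREM2 females lie above all 3 of their controls, Trem2 and Cd33 of R47H-TREM2 males lie below both of theirs, and Treml1 is at 0 in every male.

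In LG72 females with the R47H allele, set against their controls, 0 of the 9 genes passed the edgeR test. All 8 genes other than Treml1 had a log2 fold change above 0, with a median of 0.94, where 50.5% of all 16118 genes tested were above 0. Treml1, which passed the filter on low counts through the WT-TREM2 females, is described further on. With the microglial marker level as a covariate 4 of the 9 genes were above 0. EdgeR called 0% of genes at an adjusted p under 0.05, while 2262 genes (14%) and 5 of the 9 had an unadjusted p under 0.05. DESeq2 called 180 genes and limma-voom 0.

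The kinase gene Syk (chromosome 13) stood at 10, 5.17, 5.49, 3.98 and 8.54 CPM in R47H-TREM2 females and at 3.72, 3.13 and 3.70 CPM in controls. All 5 lay above all 3 controls (edgeR log2 fold change 0.91 with an SE of 0.34 and adjusted p = 0.259). Vav1, the exchange factor that SYK phosphorylates, stood at 9.52, 15.0, 8.07, 4.32 and 15.2 CPM against 7.17, 1.68 and 6.37 CPM. Of the 5, 4 lay above all controls (edgeR log2 fold change 1.03 with an SE of 0.42 and adjusted p = 0.286), and the value was 0.59 without control female 2. Plcg2, the phospholipase that produces the calcium signal, stood at 7.95, 10.3, 5.23, 4.46 and 8.05 CPM against 3.61, 4.81 and 4.97 CPM, with R47H-TREM2 female 4 inside the control range (edgeR log2 fold change 0.69 with an SE of 0.35 and adjusted p = 0.379).

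Of the phosphatase genes that dampen the signal, Ptpn6 had the largest fold change of the 9, while Inpp5d stood in the middle of the order. Cd33 stood near the bottom. Ptpn6 (chromosome 6), the tyrosine phosphatase, stood at 21.4, 13.6, 9.53, 5.76 and 14.8 CPM in R47H-TREM2 females and at 4.39, 2.85 and 5.69 CPM in controls, without overlap. Its log2 fold change was 1.59 (SE 0.45, edgeR adjusted p = 0.180, range 1.32 to 1.84 with each library left out), and it was the 1 gene of the 9 that DESeq2 called (DESeq2 adjusted p = 0.0382). Inpp5d (chromosome 1), the lipid phosphatase, stood at 25.3, 20.0, 13.5, 11.7 and 18.1 CPM against 7.89, 7.15 and 12.2 CPM, with R47H-TREM2 female 4 just below the highest control (edgeR log2 fold change 0.96 with an SE of 0.32 and adjusted p = 0.216). Cd33, the sialic acid receptor, stood at 8.47, 5.92, 4.76, 3.22 and 6.14 CPM against 4.5, 3.47 and 2.68 CPM. It differed least of these genes (edgeR log2 fold change 0.69 with an SE of 0.46 and adjusted p = 0.495). Groups without overlap and higher in carriers, as for Syk and Ptpn6, were found for 3.59% of all genes tested.

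Markers of several cell types moved with this comparison. The summed level of the 16 microglial markers ran from 608 to 1910 CPM in R47H-TREM2 females and from 548 to 738 CPM in their controls. Markers of oligodendrocytes summed to 7150 to 17900 CPM against 4390 to 5430 CPM, without overlap, and those of astrocytes to 5980 to 18100 against 3610 to 6160 CPM. Those of border macrophages summed to 11 to 23 against 7.73 to 15.8 CPM, but each marker on that list overlapped between the groups. Stab1 was the most abundant of them (7.05 to 11.6 against 6.46 to 10.8 CPM). Mrc1 reached higher in R47H-TREM2 females (0.86 to 8.4 against 0.212 to 1.39 CPM), and Cd163 reached higher in controls (0 to 0.7 against 0.425 to 1.23 CPM). R47H-TREM2 female 4, the lowest of its group in microglial marker level, was also the lowest for each of the 8 genes other than Treml1. Markers of monocytes and neutrophils summed to 1.13 to 6.21 CPM against 0.467 to 1.78 CPM, with Ngp, Retnlg and Elane under 0.5 CPM in every library. Neuronal markers reached lower levels in R47H-TREM2 females, with overlap. Those of excitatory and inhibitory neurons summed to 5750 to 9790 against 8340 to 10000 CPM. Those of hippocampal neurons summed to 296 to 885 against 588 to 721 CPM. The part of these other cell types in the result was not tested. All 5 R47H-TREM2 libraries were shallower than their controls (at most 17442293 counts against at least 17545680). Without the doubted libraries, and so against control female 2 alone, the log2 fold changes were 2.13 for Tyrobp, 2.46 for Vav1, 2.13 for Ptpn6, 1.29 for Inpp5d and 1.49 for Trem2, and none passed (edgeR adjusted p = 0.719 for each of these).

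In R47H-TREM2 males the same genes were not higher. Of the 8 genes with any count in males, 0 had a log2 fold change above 0 (median −0.26), where 53% of all genes tested were above 0, and edgeR called 0% of genes (995 at an unadjusted p under 0.05, 0 of them among the 8). Cd33 stood at 4.90, 5.75, 2.78, 3.62 and 4.2 CPM in R47H-TREM2 males and at 7.11 and 9.15 CPM in controls. Like Trem2 it was lower in all 5 (edgeR log2 fold change −0.94 with an SE of 0.49 and adjusted p = 0.779), a pattern found for 4.95% of all genes tested. Plcg2 stood at 8.71, 8.11, 4.66, 4.18 and 5.16 CPM against 8.15 and 10.4 CPM, with 4 of 5 below both controls (edgeR log2 fold change −0.59 with an SE of 0.38 and adjusted p = 0.784). Syk at 7.82, 4.88, 5.95, 7.25 and 3.15 CPM against 4.62 and 7.04 CPM did not separate (log2 fold change −0.01, SE 0.38). Inpp5d, Ptpn6 and Vav1 overlapped as well, with log2 fold changes of −0.16, −0.27 and −0.24 (SE 0.34, 0.48 and 0.45; edgeR adjusted p = 0.935, 0.914 and 0.920). With 2 controls the comparison is weak. The microglial markers of those controls (1230 and 1260 CPM summed) lay within the range of the 5 R47H-TREM2 males (706 to 1360, median 921). In mean log2 CPM of the markers, R47H-TREM2 males 3, 4 and 5 (5.507, 5.101 and 5.33) lay below both controls (5.865 and 5.666). Males 1 and 2 (6.042 and 5.92) lay above both.

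WT-TREM2 females showed no shared direction. Of the 8 genes other than Treml1, 3 were above 0 and 5 below (median −0.05), where 54.6% of all genes tested were above 0. Treml1, which passed the filter on low counts through these females, is described further on. EdgeR called 0% of genes (630 at an unadjusted p under 0.05, 0 of them among the 9). Syk ranged from 3.17 to 6.05 CPM with a median of 4.85 in WT-TREM2 females and stood at 3.01, 2.36 and 5.08 CPM in controls, with 3 of 6 above all controls (edgeR log2 fold change 0.46 with an SE of 0.33 and adjusted p = 0.860). Ptpn6 ranged from 3.56 to 9.15 CPM (median 5.38) and stood at 3.84, 6.39 and 12.5 CPM in controls, the opposite sign to R47H-TREM2 females (edgeR log2 fold change −0.34 with an SE of 0.41 and adjusted p = 0.874). Inpp5d, Cd33, Plcg2 and Vav1 had log2 fold changes of −0.06, −0.29, −0.16 and −0.05 (SE 0.30, 0.43, 0.33 and 0.39). Control female 3, a doubted library and the one richest in microglial markers of the 3, decides these signs. Without it all 9 genes, Treml1 included, were above 0. Without all the doubted libraries 7 of the 9 were above 0, again counting Treml1, with Trem2 at −0.18 and Ptpn6 at 0.05 on the log2 scale.

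**Figure D3:**
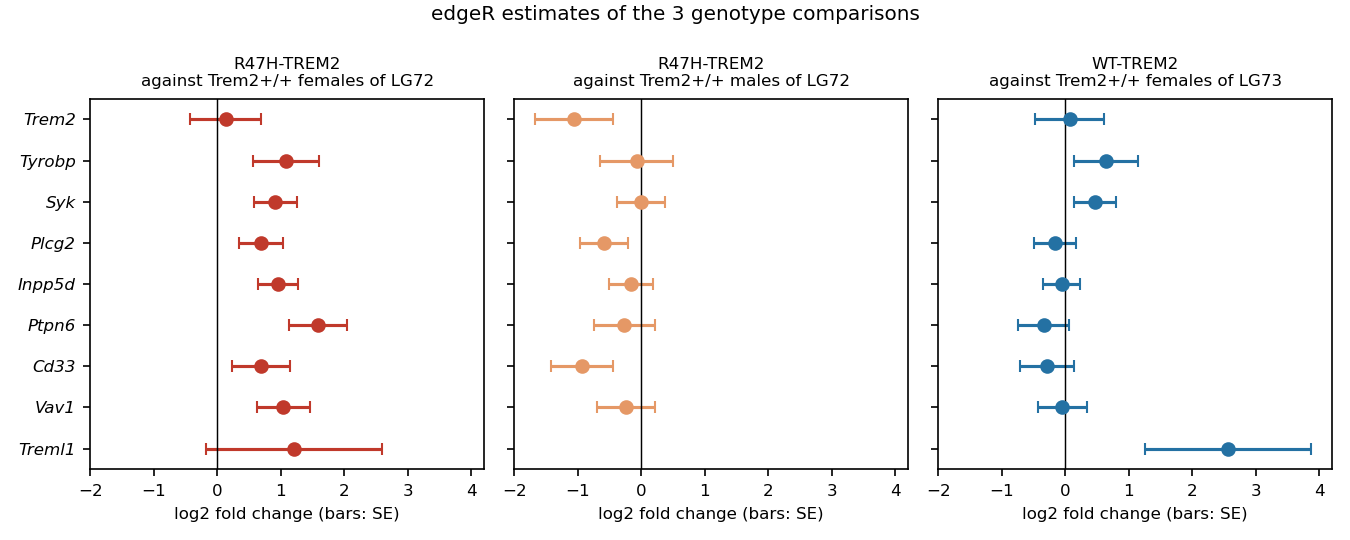
EdgeR log2 fold change (points) with its SE (bars) of each gene on the y axis in the 3 genotype comparisons. All 9 points lie above 0 in R47H-TREM2 females, the sign of Treml1 resting on 1 library, and 0 of 8 do in R47H-TREM2 males, where Treml1 has no count and no point; no gene passes an adjusted p of 0.05.

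The differences between these effects were tested directly. Ptpn6 had the smallest p of the 9 in each such test. Its R47H effect exceeded the WT effect in females by 1.93 on the log2 scale (SE 0.60, edgeR adjusted p = 0.342), followed by Inpp5d at 1.01 (SE 0.43, adjusted p = 0.477), while Trem2 stood at 0.06 (SE 0.78, adjusted p = 0.992). The Ptpn6 value was 1.37 without Trem2+/+ female 3 of LG73. Between the sexes, the R47H effect on Ptpn6 was larger in females by 1.86 (SE 0.64, edgeR adjusted p = 0.697), that on Plcg2 by 1.28 (SE 0.52, adjusted p = 0.849) and that on Trem2 by 1.20 (SE 0.84, adjusted p = 1). Of the 8 genes all 8 were above 0 in this difference, where 48.6% of all genes tested were above 0. With the microglial marker level as a covariate 6 of the 8 were. An unadjusted p under 0.05 was reached by 5 of the 8, beside 860 of 16118 genes (5.34%). EdgeR called 0% of genes in both differences. The first 2 comparisons of R47H with controls share no library, but both female differences rest on the same 3 LG72 control females. Those controls were themselves lower in Ptpn6 than the LG73 controls (edgeR log2 fold change −0.80 with an SE of 0.48 and adjusted p = 0.998), with Inpp5d at −0.49 (SE 0.34) and Trem2 at 0.48 (SE 0.63), and 0% of genes were called.

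Treml1 (chromosome 17, 48359916 to 48367176), which begins 5768 bases past the end of Trem2, behaved unlike the other 8. It was at 0 in all 7 male libraries, where 0 counts allow up to 0.191 CPM in the shallowest. WT-TREM2 females had 4, 51, 13, 5, 20 and 31 counts, and their controls had 9, 0 and 1. All 6 WT-TREM2 females held more than 3 counts, the floor used here, as did 1 of the 3 controls, and the groups overlapped (1.04 ± 0.935 against 0.160 ± 0.225 CPM, SD, n = 6 and 3; edgeR log2 fold change 2.56 with an SE of 1.31 and adjusted p = 0.860). The log2 fold change was 4.78 without control female 1 and 2.02 without WT-TREM2 female 2. R47H-TREM2 females had 16, 0, 0, 4 and 0 counts and their controls 4, 1 and 2 (edgeR log2 fold change 1.21 with an SE of 1.39 and adjusted p = 0.706), the sign turning to −0.80 without R47H-TREM2 female 1. Treml1 passed the filter on low counts through few libraries, so its fold changes are uncertain. Platelet and megakaryocyte markers summed to 11.8 to 34.5 CPM in WT-TREM2 females and 11.2 to 16.3 CPM in their controls. The largest part of that sum was Gp1bb (7.61 to 26.9 against 5.89 to 10.7 CPM). Gp5 (0.738 to 2.38 against 1.25 to 2.05 CPM) and Gp1ba (0.434 to 1.48 against 0.683 to 1.88 CPM) did not stand higher in WT-TREM2 females. Each listed marker overlapped between the groups, and the part of platelets in the Treml1 counts was not tested.

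No tested gene near Trem2 passed the edgeR test in the 3 genotype comparisons. The 150 kb on either side hold 11 other coding genes. The receptor genes Trem1, Trem3 and Treml4 had at most 5 counts in any library. These genes, Apobec2 and Tspo2 did not pass the filter on low counts and were not tested. Treml2, another TREM family receptor, which starts 46.9 kb before Trem2, stood at 2.05 ± 1.14 against 1.03 ± 0.891 CPM in R47H-TREM2 females and their controls (SD, n = 5 and 3; edgeR log2 fold change 0.98 with an SE of 0.81 and adjusted p = 0.584), at −0.20 on the log2 scale in males and at 0.54 in WT-TREM2 females. Nfya, a subunit of a general transcription factor 40.5 kb after the start of Trem2, had log2 fold changes of 0.10, 0.53 and 0.11 (edgeR adjusted p = 0.869, 0.779 and 0.917). Oard1, 63.6 kb after the start of Trem2, stood at 0.43, 0.51 and 0.32 (edgeR adjusted p = 0.48, 0.782 and 0.86).

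Per kilobase of the median coding transcript, Tyrobp was the most abundant of the 9 at a median of 25.5 CPM per kb over the 24 libraries, and Trem2 followed at 12.3. This order held in 24 of 24 libraries, and Trem2 stood above the third, Inpp5d (3.40), in 24 of 24 as well. Inpp5d and Ptpn6 (2.93) did not differ in order, since Inpp5d was higher in 11 libraries. Vav1 stood at 2.64, Cd33 at 2.41, Plcg2 at 1.24 and Syk at 0.971 CPM per kb, and Treml1 came last at 0.0486. The place of Trem2 rests on the length used. Per kilobase of all annotated exons merged, Tyrobp was still first (21.6), but Trem2 (2.66) stood close to Ptpn6 (2.32), Vav1 (2.01) and Inpp5d (1.85).

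Across the 24 libraries the levels of 8 of the 9 genes followed the microglial marker level, the mean log2 CPM of 16 microglial genes that includes none of the 9. Ptpn6 followed it most closely (Pearson r = 0.94, Spearman rho = 0.92, permutation p = 1e-05 for both, the smallest that 100000 draws can give; limma adjusted p = 1.41e-08) and ranked 10th of 16118 genes by r. Inpp5d (r = 0.84, rho = 0.80), Plcg2 (0.815 and 0.80), Tyrobp (0.78 and 0.74) and Vav1 (0.77 and 0.82) came next, with limma adjusted p from 3.18e-05 to 0.000282. Syk (0.74 and 0.70), Trem2 (0.72 and 0.69) and Cd33 (0.70 and 0.68) followed at limma adjusted p of 0.00265, 0.000769 and 0.00327, with permutation p of 3e-05, 4e-05 and 0.00014 for r. Treml1 did not follow it (r = −0.02, rho = −0.21, permutation p = 0.912 and 0.331; limma adjusted p = 0.959). These are 9 relations, adjusted over all genes, and a limma adjusted p under 0.05 was reached by 6.81% of the 16118 genes. Both this share and the rank of Ptpn6 count the 16 markers themselves among the genes.

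**Figure D4:**
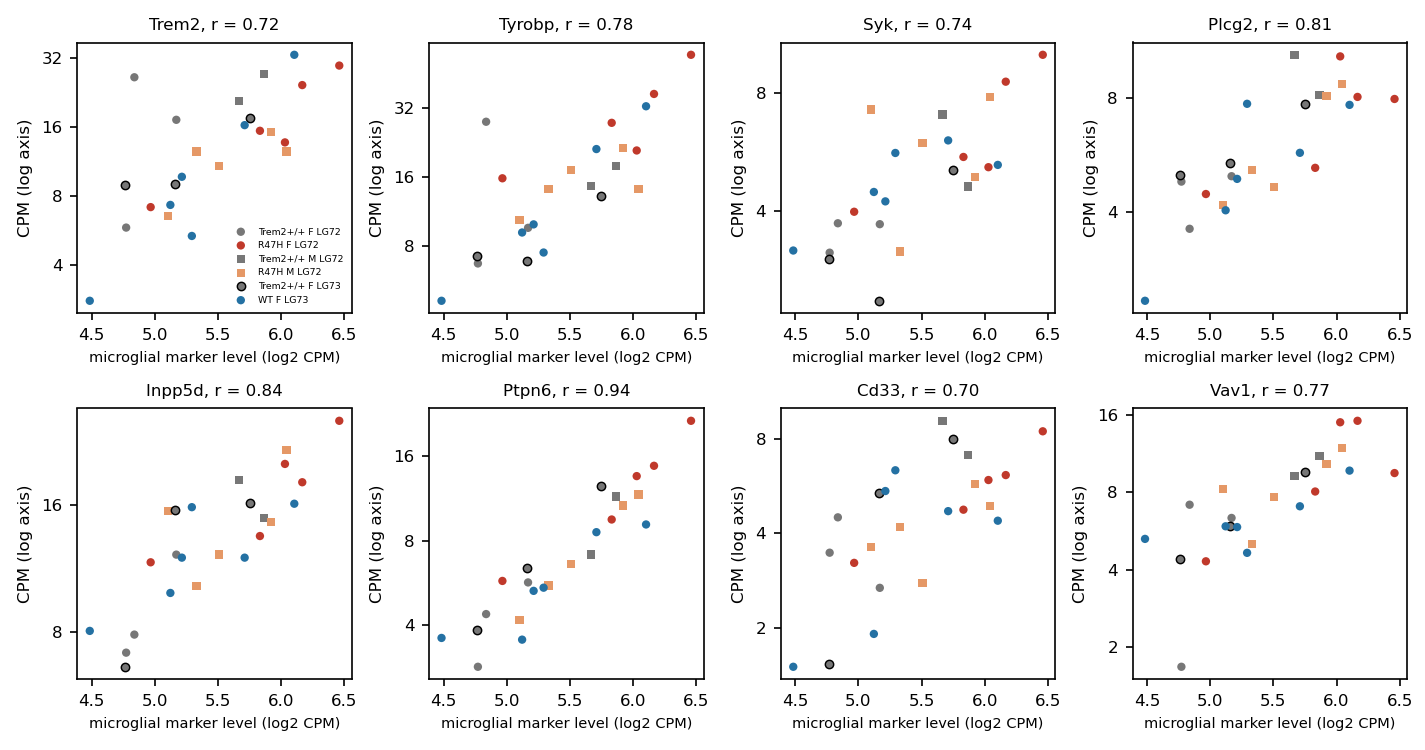
CPM on a log axis of 8 genes against the microglial marker level (mean log2 CPM of 16 genes) in 24 libraries, coloured by group, circles for females and squares for males, with Pearson's r of the log2 values above each panel. Ptpn6 lies closest to a line (r = 0.94), and for Trem2 the Trem2+/+ libraries of LG72 lie mostly above the R47H-TREM2 libraries of the same marker level.

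Within LG72 alone r was 0.97 for Ptpn6, 0.86 for Inpp5d, 0.57 for Trem2 and 0.67 for Tyrobp (15 libraries; limma adjusted p = 2.24e-05, 0.0044, 0.202 and 0.0712), and the adjusted p was also above 0.05 for Syk (0.0874) and Cd33 (0.103) and below it for Plcg2 (0.0318) and Vav1 (0.0186). Within LG73 alone it was 0.87, 0.76, 0.90 and 0.92 (9 libraries; limma adjusted p = 0.0878, 0.2, 0.0201 and 0.014), with Plcg2 (0.171), Vav1 (0.204), Cd33 (0.213) and Syk (0.318) above 0.05 as well. All 8 r values were above 0 within each prefix, but not all 8 genes passed in either. The share of all genes passing within a prefix was not counted. Without the 2 libraries farthest from the median marker level, R47H-TREM2 female 1 and WT-TREM2 female 4, r was 0.93 for Ptpn6, 0.61 for Trem2, 0.68 for Tyrobp and 0.59 for Cd33, and the adjusted p of Cd33 was 0.0826. The 5 genes most like Trem2 over the 24 libraries by Pearson's r were C1qa (0.87), C1qb (0.87), Ctss (0.865), AF251705 (0.86) and C1qc (0.855), of which all but AF251705 are microglial markers on the list. Those most like Tyrobp were S100a6 (0.94), Lyz2 (0.93), AF251705 (0.92), Rgs10 (0.91) and Cyba (0.91), so that 1 gene appears for both. Of the 9 genes Ptpn6 alone shares exon sequence with another annotated gene, 195 bases with Gm20531 on the opposite strand, and the sources used here give no strand setting for the counting.

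The wider pathway was read from a list of 102 genes arranged by role, of which 90 were tested. The list was drawn up with earlier results of these data known, so its counts are a description and not a test. In R47H-TREM2 females 0 were called, 68 lay above 0 and 22 below (median log2 fold change 0.65), and 35 had an unadjusted p under 0.05, beside 50.5% above 0 and 14% under 0.05 among all genes tested. The role for other receptors that pair with Tyrobp or Fcer1g was drawn broadly. It also held Csf1r, the integrin chains Itgam and Itgb2, and Clec7a, which are not receptors of that strict kind. Its tested genes were above 0 in 9 of 9 cases (median 1.28). The smallest p-values were those of the Fc receptor genes Fcgr3 at 1.45 (SE 0.45) and Fcgr1 at 1.55 (SE 0.49), with edgeR adjusted p = 0.193 and 0.196. The adaptors Fcer1g, the common chain of Fc receptors, and Hcst, which couples receptors to PI3K, stood at 1.62 (SE 0.53) and 3.20 (SE 1.20; edgeR adjusted p = 0.212 and 0.259). Of the inhibitory receptors 7 of 9 were above 0 (median 1.24), with the collagen receptor Lair1 at 1.24 (SE 0.39) and Cd300a at 1.37 (SE 0.48). Of the transcription factors and Ms4a genes 9 of 10 were above 0 (median 1.09), with Irf8 at 1.58 (SE 0.45) and Spi1, which encodes PU.1, at 1.27 (SE 0.43; edgeR adjusted p = 0.180 and 0.227). The scaffold Lcp2 (1.39, SE 0.43) and the phosphatase Ptprc (1.68, SE 0.60), both of haematopoietic cells, also stood high. Genes of PI3K and AKT, which are expressed in most cells, split 6 above and 6 below 0 (median 0.01), with Pik3cg, a leukocyte subunit, at 0.98 (SE 0.32, edgeR adjusted p = 0.212).

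In R47H-TREM2 males 17 of the 90 lay above 0 and 73 below (median −0.26), 0 were called and 7 had an unadjusted p under 0.05, beside 53% above 0 and 6.17% under 0.05 among all genes tested. The smallest p was that of Cbl, a ubiquitin ligase that ends receptor signalling (edgeR log2 fold change −1.52 with an SE of 0.47 and adjusted p = 0.779), and the adaptor Blnk stood at −1.12 (SE 0.43) and the growth factor receptor Csf1r at −0.80 (SE 0.33). In WT-TREM2 females the list split 45 above and 45 below 0 (median −0.002), beside 54.6% above 0 among all genes tested. Here 0 were called and 1, the adaptor Dok3, had an unadjusted p under 0.05, as 3.91% of all genes did (edgeR log2 fold change 1.46 with an SE of 0.64 and adjusted p = 0.860). Spi1 and Irf8 stood at 0.59 (SE 0.41) and 0.47 (SE 0.42) in this comparison.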

How the data were processed

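Total RNA of hippocampal tissue was isolated with a Qiagen kit, and mRNA was enriched on oligo(dT) beads, per the labels' protocols. The authors deposited whole-number read counts per gene symbol, made with GRCm38 per the submitters' processing notes. Aligner, counter, annotation and strandedness are not stated in those notes. A further 18 columns matched no sample and were not used. Symbols that had been turned into dates (25) held 0.353% of counts.

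The 9 genes and all gene lists were chosen with earlier results of these data known. Genes passing filterByExpr (16118) were scaled by TMM and fitted with the quasi-likelihood test of edgeR 4.0.16 (R 4.3.3) over 24 libraries and 6 group means. The Benjamini-Hochberg correction ran over all genes, with calls under 0.05. Each SE is the fold change divided by the root of its F value. The common coefficient of biological variation was 0.318. CPM use TMM factors.

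Ratios of Trem2 to Tyrobp counts (plus 0.5) were tested by exact permutation with the smaller tail doubled. Correlations used log2 CPM (prior count 2), with permutation p from 100000 draws. The p adjusted over all genes came from limma 3.58.1, where an adjusted permutation p had been planned. No pair of libraries within a group agreed within sampling noise (smallest chi-square per degree of freedom 10.7). Gene positions and lengths are those of GENCODE M21, and upstream sequences those of RefSeq. Floors of 3 counts cover counting error only. The edgeR test was checked on simulated counts and the limma slope test on simulated normal values. All 9 genes were named in the genotype comparisons, and in the others Trem2 with the 2 smallest p-values. From each role of the pathway list up to 2 genes of smallest p could be named.

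Alternatives were DESeq2 1.42.0 (its size factors and its Wald test), limma-voom with sample weights, no filter, the compared groups alone, the microglial marker level as a covariate and leaving out each library. Added after seeing the data were fits without the doubted libraries, with the class of Alb (above or below 30 CPM) and with each library's slope of expression on transcript length, other reference genes for Trem2, and levels per kilobase of merged exons.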

Additional observations from a re-analysis of the deposited data

Results flagged for a closer look

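In R47H-TREM2 female 1 of LG72, Treml1 stood at 1.20 CPM, far from the next highest of its group (0.274 CPM). The gap was 0.772 of the group's range, above the limit of 0.71 for 5 samples. It was the 1 such library among 29 sets of values examined, and chance flags about 1 in 20.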

How the results depend on the processing

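At 13261478 or more counts per library Treml1 had at most 51 counts, so its values are the least certain. No paired analysis was possible because the labels give no replicate numbers shared between groups. EdgeR called 0 genes in all 6 comparisons. The Wald test of DESeq2 called 180 genes in R47H-TREM2 females (1 of the 9 genes, Ptpn6), 3 in R47H-TREM2 males, 13 for the R47H minus WT effect, 1 for the female minus male effect and 2 between the control groups. No filter and the transcript length slope each gave 1 call in R47H-TREM2 females. Leaving out each library gave 0 to 7 calls in R47H-TREM2 females, 0 to 48 in males, 0 to 1 for either difference of effects and 0 to 2 between controls. Causes of these changes were not tested.

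The number of the 9 genes above 0 was 4 with the microglial marker level as a covariate, both in R47H-TREM2 females and for the R47H minus WT effect. For the female minus male effect it was 6 of 8 with that covariate. In males it was 1 with the class of Alb, 1 with limma-voom, 2 with the marker level and 0 to 2 with each library left out. In WT-TREM2 females, with Treml1 counted, it was 2 with the length slope, 7 without the doubted libraries and 3 to 9 with each library left out. Between the controls it was 1 without the doubted libraries and 0 to 4 with each left out.

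Of 35 fold changes, 18 turned in sign under some alternative, and outside DESeq2 the lowest adjusted p was 0.0789. With the marker level, log2 fold changes in R47H-TREM2 females were −1.505 for Trem2, −0.266 for Tyrobp, −0.159 for Plcg2, −0.323 for Cd33 and −0.085 for Treml1. In males they were 0.159 for Tyrobp and 0.096 for Syk. For Trem2 they were −0.397 in WT-TREM2 females, −1.108 for R47H minus WT and −0.73 for female minus male. With the length slope Trem2 was at −0.176 in R47H-TREM2 females, and in WT-TREM2 females Trem2 was at −0.765 and Tyrobp at −0.058. With limma-voom Treml1 was at −0.418 in R47H-TREM2 females, Tyrobp at 0.054 in males, and Trem2 at −0.257 in WT-TREM2 females and −0.061 between controls. With the class of Alb Syk was at 0.067 in males, and in WT-TREM2 females Trem2 was at −0.154 and Inpp5d at 0.117. Without the doubted libraries WT-TREM2 females gave −0.18 for Trem2, 0.044 for Inpp5d, 0.053 for Ptpn6, 0.076 for Cd33 and 0.15 for Vav1, and the controls gave −0.641 for Trem2.

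With each library left out, Trem2 ran from −0.314 to 0.597 and Treml1 from −0.802 to 1.845 in R47H-TREM2 females. In males Tyrobp ran from −0.227 to 0.091, Syk from −0.276 to 0.326 and Ptpn6 from −0.572 to 0.119. In WT-TREM2 females Trem2 ran from −0.51 to 0.469, Plcg2 from −0.33 to 0.054, Inpp5d from −0.371 to 0.152, Ptpn6 from −0.664 to 0.221, Cd33 from −0.726 to 0.237 and Vav1 from −0.275 to 0.321. Trem2 ran from −0.345 to 0.643 for R47H minus WT and from −0.029 to 0.882 between controls.

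The log2 ratio of Trem2 to Tyrobp was lower in carriers than in controls in all 3 genotype comparisons under every alternative run. The difference was −0.662 in R47H-TREM2 females and −0.826 in WT-TREM2 females without the doubted libraries, where fewer samples raise the smallest possible exact p. With each library left out it ran from −1.192 to −0.671 and from −0.76 to −0.61. Genes that lay below the controls in ratio to Tyrobp in all 3 comparisons numbered 7 without the doubted libraries and 1 to 2 with each library left out. The r of Treml1 with the marker level was 0.006 in LG72, 0.395 in LG73 and −0.186 to 0.028 with each library left out.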
